A study of Mus musculus with 4 samples.

Results

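Type I interferon response genes were followed in single cells from mouse brown adipose tissue (BAT). The cells came from its stromal vascular fraction (SVF), the non-adipocyte cells set free when the tissue is digested. The members were 46 genes listed by symbol, and the counts of 44 of them were analysed among the 32285 genes of the files. Mx1 and Mx2 were not analysed here. A core of 20 members that are low at rest and strongly induced by type I interferon was summed as 1 value, of which 18 were analysed.

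The study asked how obesity reshapes the cells of BAT, and its single-cell data hold 4 libraries, 1 for each group. The labels give the strain C57BL6/J for all of them. WT was labelled 10 weeks. The db/db mice, which carry a mutated leptin receptor (Lepr) and become obese and diabetic, gave a library at 8 weeks (8-week db/db, db/db 8w in the plots) and another at 16 weeks (16-week db/db, db/db 16w in the plots). HFD was a library of mice fed a high-fat diet, also labelled 10 weeks, an age that the study's methods also give as the start of the diet, so the age at sampling is not settled by the label. Each library was, by the study's account, the pooled SVF of 3 mice, so single mice cannot be told apart and no library has a replicate. No test was therefore made. Intervals are exact 95% intervals of counting error and do not cover the spread between mice or preparations. All 3 comparisons use the same WT library, and genotype, diet, age, library and batch cannot be told apart.

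Type I interferons are secreted proteins, among them interferon beta and the interferon alpha family, that cells make when sensors detect foreign or misplaced nucleic acid. They bind the receptor of Ifnar1 and Ifnar2, which through the kinases Jak1 and Tyk2 activates a complex that holds Stat2 and Irf9. The complex binds a DNA element called the interferon-stimulated response element (ISRE) and raises antiviral genes, among them most of the members here. In adipose tissue, resident macrophages, fibroblast-like stromal cells and endothelial cells can all respond.

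Promoter sequence shows what the members share beside their levels. The ISRE was searched on both strands as GAAA followed, after any 2 bases, by GAAA again, from 250 bases before to 50 bases after each RefSeq gene start of build GRCm38.p6, a window of 300 bases. Of 44 members 35 were matched to a window, and 21 of them (60%) held the element, against 1079 of 27025 genes (3.99%) over all promoters. Windows were not matched for Usp18, Oas2, Ifi204, Iigp1, Zbp1, Rtp4, Ifi27l2a, Parp14 and Ly6e. Matches of 6 members that the results turn on are shown in capitals, both of Ifit1, 1 of the 2 of Ifit3, the middle of 3 overlapping ones of Isg15 and 1 each of the others, read along the gene's strand, so that TTTC, 2 bases and TTTC is the same element on the opposite strand.
Ifit1, chr19:34640775-34640804, plus strand: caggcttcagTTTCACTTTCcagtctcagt
Ifit1, chr19:34640794-34640823, plus strand: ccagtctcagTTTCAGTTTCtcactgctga
Ifit3, chr19:34583363-34583392, plus strand: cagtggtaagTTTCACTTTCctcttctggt
Isg15, chr4:156200871-156200900, minus strand: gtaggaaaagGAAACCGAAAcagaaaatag
Rsad2, chr12:26456553-26456582, minus strand: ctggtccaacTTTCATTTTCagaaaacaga
Stat2, chr10:128270266-128270295, plus strand: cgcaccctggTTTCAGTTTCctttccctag
Gbp7, chr3:142530273-142530302, plus strand: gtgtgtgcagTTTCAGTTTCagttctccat

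The last base of the matches shown lay 95 and 76 bases before the start of Ifit1, 147 before Ifit3, 63 before Isg15, 111 before Rsad2, 213 before Stat2 and 44 before Gbp7. Ifit3b carried the same 30 bases as Ifit3, 179 bases before its own start (chr19:34607759-34607788). The windows of Irf7, Ifit2, Oasl1, Oasl2 and Irf9 held no match, which says only that these letters are not in those windows. A second element, the gamma-activated site TTCNNNGAA, was in the windows of 8 of 35 members (22.9%) and of 9.55% of all genes. The other genes of the interferon pathway held the ISRE in 23 of 62 (37.1%).

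Many members lie side by side. All 44 were placed, on 16 chromosomes, and 21 of them fell in 7 groups with gaps of at most 500 kb. The IFIT genes lie at chr19:34550694-34650009, 5 genes of the IFI200 family at chr1:173630917-173942672, and Oas2, Oas3 and Oas1a at chr5:120730333-120907521. Rsad2 and Cmpk2 are neighbours at chr12:26442746-26479837, and Gbp7, Gbp3 and Gbp2 lie at chr3:142530342-142638008. Neighbours that are copies of each other can share the 3′ sequence that the reads come from. In the last 500 bases of their transcripts, over 10% of the stretches of 50 bases were shared with another gene for 6 members, Oas1a (56.1%, with Oas1g), Ifi209 (47.8%, with Ifi214), Ifi211 (77.4%, with Ifi205 and Mndal), Phf11b (42.6%, with its paralogs), Trim30a (19.9%, with Trim30d) and Ifit3 (14.9%, with Ifit3b). Levels of these 6 are uncertain to that extent.

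Depth and quality differed between the libraries. Quality limits kept 5944 cells in WT, 11648 in 8-week db/db, 5833 in 16-week db/db and 5462 in HFD, with median UMIs (unique molecules counted) between 2733 and 6218.5 per cell. The HFD library kept 31.3% of its barcodes, because 68.5% were at or over 15% mitochondrial UMIs, and the 16-week db/db library had 1.04% of barcodes there. The 16-week db/db library also stood apart by sex-linked genes, with Xist at 207 CPM (UMIs of the gene for every 1000000 UMIs) and 4 Y-linked genes together at 17.7 CPM. In the other libraries Xist lay between 0.187 and 0.688 CPM and the Y-linked genes between 164 and 188 CPM, and the study describes its mice as male. Every value of 16-week db/db below rests on that library, and the values of 8-week db/db and HFD do not. Between 16 and 97 barcodes were shared by any pair of libraries, at most 0.629% of the smaller one.

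Cells were assigned to lineages by raw UMIs of marker genes, none of them a member. Monocytes and macrophages (Mono/MAC) counted 1213 cells in WT, 3013 in 8-week db/db, 2413 in 16-week db/db and 1561 in HFD. Stromal cells counted 4310, 6078, 1138 and 1545 in that order, and endothelial cells 12, 77, 1275 and 1051. Genes held out of the gates followed them. Lyz2, a lysozyme of myeloid cells, lay between 5271 and 6914 CPM in Mono/MAC and between 50.5 and 283 CPM in stromal cells, and the collagen gene Col1a1 lay between 5091 and 11480 CPM in stromal cells and at most 168 CPM in Mono/MAC. Fbln1, a stromal matrix gene, was at 235 CPM in WT and 27.5 CPM in 16-week db/db stromal cells, so that these stromal cells also differed in a gene of their own class.

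In Mono/MAC the core members were highest in WT and lower in every library of obese mice. Their summed level was 2039 CPM (2008 to 2070) in WT, 608 CPM (597 to 619) in 8-week db/db, 63.9 CPM (60.2 to 67.7) in 16-week db/db and 206 CPM (198 to 215) in HFD. No 2 of the 4 intervals overlapped. The core was thus 3.35-fold lower in 8-week db/db, 31.9-fold lower in 16-week db/db and 9.89-fold lower in HFD than in WT, with log2 ratios of -1.75 (-1.78 to -1.71), -5.00 (-5.09 to -4.91) and -3.31 (-3.37 to -3.24). Summed over all 44 members the level was 3.03-fold, 9.97-fold and 4.42-fold lower, nearer to WT than the core in each library. In cells of 2000 to 8000 UMIs the core ratio of 16-week db/db was -4.28.

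**Figure D1:**
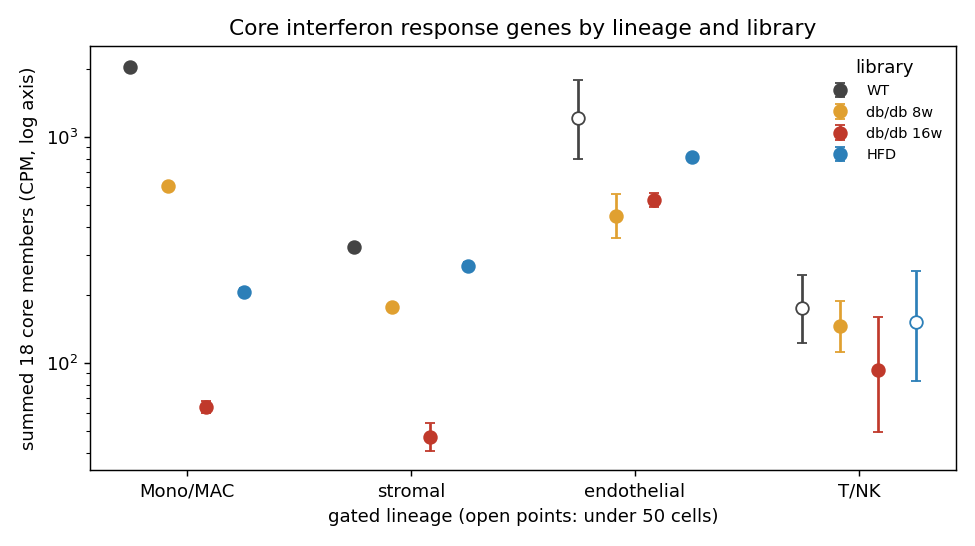
Summed level of the 18 core members in CPM on a log axis, for each gated lineage and library, with exact 95% Poisson intervals of counting error as bars and open points for lineages of under 50 cells. In Mono/MAC the points range from 2039 CPM in WT down to 63.9 CPM in 16-week db/db, while in stromal cells WT (326 CPM) and HFD (270 CPM) lie close together.

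Single members were lower than in WT too. Of the 44 members 37 had a mean of at least 10 CPM over the libraries in Mono/MAC, and of these 29 were at least 2-fold lower in 8-week db/db than in WT, where 3.96% of the 7476 genes tested were that much lower. In 16-week db/db 36 members were at least 2-fold lower, beside 23.4% of all genes, and in HFD 27 members, beside 9.43%. No member was at least 2-fold higher in any of the 3 libraries, beside 5.98%, 19.8% and 13.7% of all genes. A gene can pass the minimum through a high WT level alone, which favours lower ratios among the genes that pass. Over all 44 members, passed or not, the median log2 ratio was -1.85 in 8-week db/db, -3.55 in 16-week db/db and -1.86 in HFD. Over all genes tested the median was 0.06, -0.10 and 0.19, and the members' ratios can be read relative to these. The members under the level minimum in Mono/MAC were Ifit3b, Usp18, Oas3, Igtp, Isg20, Cmpk2 and Ifi44.

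**Figure D2:**
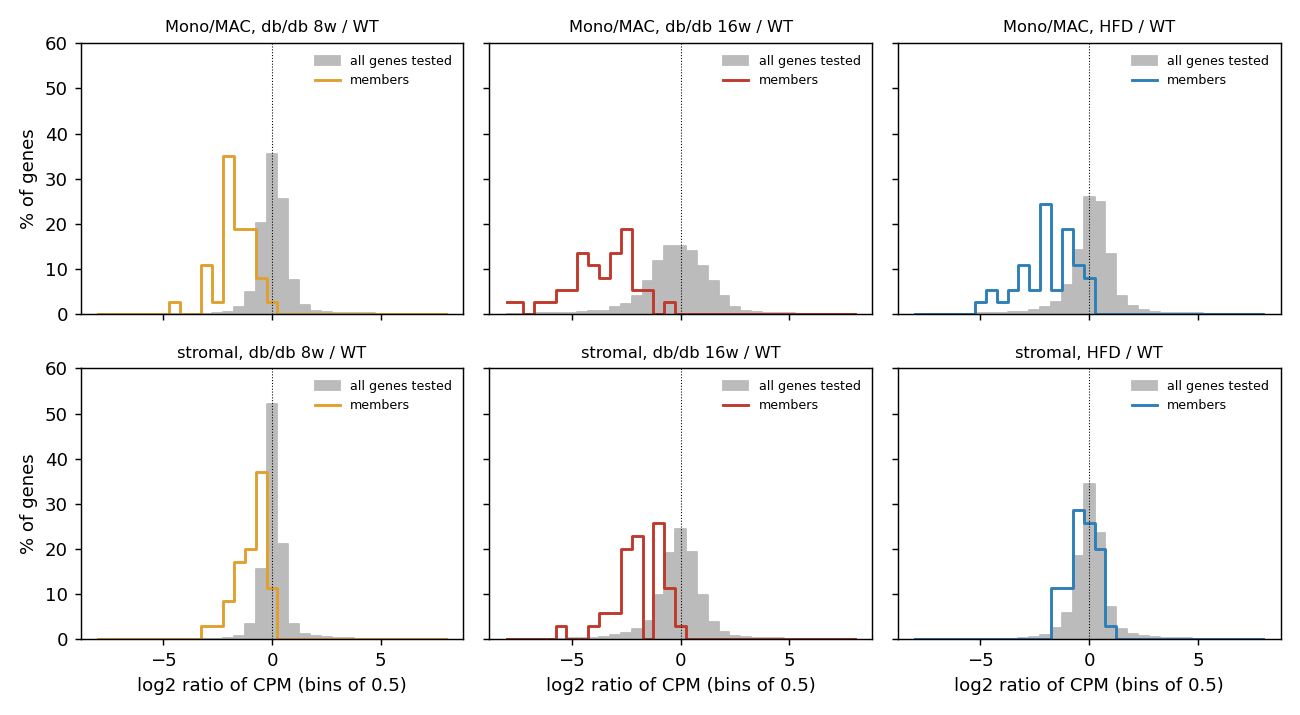
Percent of genes in bins of 0.5 of the log2 ratio to WT, for Mono/MAC (upper row) and stromal cells (lower row) and each library of obese mice, with all genes tested in grey and the members past the level minimum as a coloured line. In Mono/MAC the members lie mostly to the left of all genes in each panel, with medians of -1.77, -3.54 and -1.92, and in stromal cells of HFD the members lie near 0, with a median of -0.26.

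Rsad2 gave more of the core UMIs than any other member in WT. It encodes viperin, an enzyme that makes a chain-terminating nucleotide against viral polymerases, and its promoter match is shown above. Its level in Mono/MAC was 732 CPM in WT, 93.6 CPM in 8-week db/db, 4.29 CPM in 16-week db/db and 25.8 CPM in HFD. This is 7.82-fold, 171-fold and 28.4-fold below WT. Rsad2 made up 35.9% of the core UMIs in WT Mono/MAC, but 15.4%, 6.71% and 12.5% in 8-week db/db, 16-week db/db and HFD. Without Rsad2 the core ratio was -1.35, -4.46 and -2.86 on the log2 scale. The core was therefore lower in all 3 libraries also with its leading gene left out.

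The IFIT genes encode proteins that hold RNA with foreign 5′ ends away from translation. Ifit1 was at 183 CPM in WT, 48.0 CPM in 8-week db/db, 0.677 CPM in 16-week db/db and 7.49 CPM in HFD. Only 12 UMIs of Ifit1 were counted over 2413 Mono/MAC of 16-week db/db, and its ratio there, -8.08 (-9.03 to -7.27), was the lowest of the 37 members. Ifit2 was at 60.5, 7.37, 2.43 and 8.71 CPM in WT, 8-week db/db, 16-week db/db and HFD. Ifit3 was at 29.2, 3.58, 0.677 and 7.75 CPM in that order. The 3 genes past the level minimum were at least 2-fold lower in each library. Ifit2 and Ifit3 were under 10 CPM in every library of obese mice and passed the minimum only with WT. For these genes the minimum itself therefore favours a lower ratio. The order between 8-week db/db and HFD was not the same for all, since Ifit1 was lower in HFD and Ifit3 was lower in 8-week db/db.

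Isg15 was nearer to WT than the IFIT genes in 8-week db/db. It encodes a ubiquitin-like protein that is joined to other proteins and also secreted. Its level was 249 CPM in WT and 197 CPM in 8-week db/db, a ratio of 1.26-fold lower, and then 4.40 CPM in 16-week db/db and 23.8 CPM in HFD, 56.7-fold and 10.5-fold lower. Isg15 made up 12.2% of the core UMIs in WT and 32.5% in 8-week db/db. Usp18, the protease that takes Isg15 off its targets and also dampens the receptor, was below the level minimum, with 18.4 CPM in WT, 3.47 CPM in 8-week db/db, 0.338 CPM in 16-week db/db and 3.83 CPM in HFD.

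The OAS family makes short chains of adenylate that switch on an RNA-cutting enzyme, although Oasl1 lacks this activity. Oasl1 was at 272 CPM in WT, 147 CPM in 8-week db/db, 15.6 CPM in 16-week db/db and 10.7 CPM in HFD. Like Isg15, Oasl1 was nearer to WT in 8-week db/db, with a log2 ratio of -0.89 (-0.97 to -0.81), than most members. Oas2 was at 60.4, 14.3, 0.677 and 4.88 CPM in WT, 8-week db/db, 16-week db/db and HFD. Oasl2 was at 94.9, 23.3, 3.05 and 24.9 CPM in that order. Oasl1 was the member of this family with the lowest HFD ratio, -4.67, while Oasl2 was at -1.93 there.

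Of the transcription factors among the members, Irf7, which drives the interferon alpha genes, had the lowest ratios to WT. Irf7 was at 93.2 CPM in WT, 12.97 CPM in 8-week db/db, 9.42 CPM in 16-week db/db and 12.02 CPM in HFD, 7.18-fold, 9.89-fold and 7.75-fold lower. The 3 obese libraries lay close together for Irf7, which was not so for Rsad2 or Ifit1. Stat2 was at 64.2, 25.9, 11.8 and 16.98 CPM. Irf9, the DNA-binding partner of Stat2, was at 52.9, 26.7, 10.4 and 38.3 CPM, and its ratios of -0.99 in 8-week db/db and -0.46 in HFD were within 2-fold of WT.

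Ifih1 (MDA5) and Ddx58 (RIG-I) encode sensors of viral RNA in the cytosol. Ifih1 was at 151 CPM in WT, 98.9 CPM in 8-week db/db, 8.29 CPM in 16-week db/db and 31.5 CPM in HFD. Ddx58 was at 58.9, 19.9, 5.08 and 25.6 CPM in that order. Ifih1 was within 2-fold of WT in 8-week db/db (1.53-fold lower) and Ddx58 was not (2.97-fold lower), while both were at least 2-fold lower in 16-week db/db and HFD.

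The IFI200 genes encode proteins that bind DNA in the nucleus or cytosol. Ifi203 was at 401 CPM in WT, 153 CPM in 8-week db/db, 18.6 CPM in 16-week db/db and 54.3 CPM in HFD. Ifi204 was at 341, 142, 16.4 and 73.9 CPM, and Ifi209 at 74.6, 17.3, 3.22 and 16.98 CPM in the same order. Ifi207, a neighbour of Ifi203 and Ifi204 in the same stretch of chromosome 1, stayed near WT in 2 libraries, with 420 CPM in WT, 361 CPM in 8-week db/db, 121 CPM in 16-week db/db and 389 CPM in HFD. Its log2 ratio was -0.22 (-0.28 to -0.16) in 8-week db/db and -0.11 (-0.17 to -0.04) in HFD, against -1.39 and -2.88 for Ifi203.

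The GTPases of the GBP and IRG families attack membranes around intracellular pathogens and also respond to interferon gamma. Iigp1 was at 70.7 CPM in WT, 3.10 CPM in 8-week db/db, 1.97 CPM in 16-week db/db and 29.8 CPM in HFD. Its 8-week db/db ratio, -4.51 (-4.93 to -4.12), was the lowest of the 37 members in that library. Gbp7 was at 86.1, 40.5, 7.28 and 19.0 CPM, and Gbp3 at 44.7, 15.9, 2.37 and 12.8 CPM. Summed over 7 genes, the GTPases were at 309 CPM in WT, 87.6 CPM in 8-week db/db, 28.3 CPM in 16-week db/db and 117 CPM in HFD. In HFD endothelial cells Iigp1 was at 1077 CPM and the 7 GTPases together at 1691 CPM. The part of endothelial RNA in the HFD values of Mono/MAC was not tested.

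Among the other effectors, Ifi27l2a and Ly6e gave the most UMIs of all members in WT Mono/MAC. Ifi27l2a, an interferon-inducible membrane protein gene, was at 2441 CPM in WT, 688 CPM in 8-week db/db, 319.9 CPM in 16-week db/db and 306 CPM in HFD. Ly6e, a surface protein that blocks the entry of some viruses, was at 1419.7 CPM in WT, 231 CPM in 8-week db/db, 35.0 CPM in 16-week db/db and 79.1 CPM in HFD. Ly6e was 6.14-fold, 40.6-fold and 17.95-fold lower than in WT. Samhd1, which breaks down the building blocks of DNA, was at 299.9, 174, 102 and 193 CPM and was within 2-fold of WT in 8-week db/db and HFD. Ifi35, at 23.7, 15.7, 17.3 and 25.7 CPM, was the 1 member of the 37 within 2-fold of WT in all 3 libraries.

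**Figure D3:**
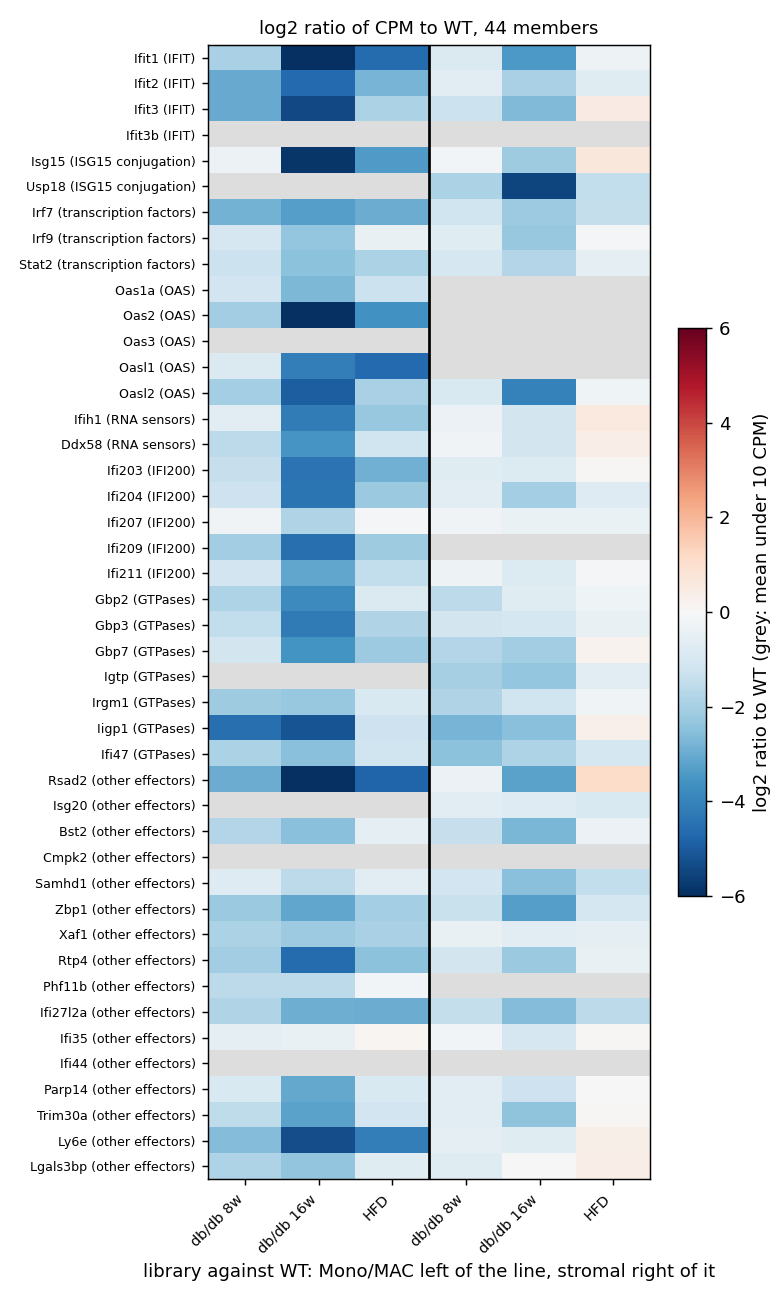
Log2 ratio of CPM to WT for the 44 members (rows, with their role), in Mono/MAC on the left and stromal cells on the right, one column for each library of obese mice, with members of a mean under 10 CPM in grey. Blue fills nearly all Mono/MAC cells of the map and is deepest in 16-week db/db, where Ifit1 is at -8.08, while the stromal HFD column holds both signs, from -1.57 for Ifi27l2a to 1.12 for Rsad2.

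Members with and members without the ISRE match both had median ratios below WT in Mono/MAC. The median log2 ratio was -1.50 in 8-week db/db, -3.55 in 16-week db/db and -1.65 in HFD for the 18 members with a match, and -1.90, -2.49 and -1.93 for the 11 members without one. These are the members that passed the level minimum and had a window.

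Stromal cells held less of the core than Mono/MAC in WT and showed smaller ratios. Their core level was 326 CPM (320 to 332) in WT, 176 CPM (171 to 181) in 8-week db/db, 47.2 CPM (40.9 to 54.1) in 16-week db/db and 269.5 CPM (259 to 281) in HFD. The log2 ratios were -0.89 in 8-week db/db, -2.79 (-3.00 to -2.59) in 16-week db/db and -0.27 (-0.34 to -0.21) in HFD. Summed over all 44 members the ratio in 16-week db/db was -1.47. The HFD ratio of the core was -0.78 when stromal cells were limited to under 5% mitochondrial UMIs, the median being 9.69% in HFD and 3.57% in WT.

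Of the 35 members with a mean of at least 10 CPM in stromal cells, 15 were at least 2-fold lower in 8-week db/db than in WT, beside 2.12% of 8319 genes tested. In 16-week db/db 26 were at least 2-fold lower, beside 13.7% of all genes, and in HFD 6, beside 6.52%. At least 2-fold higher were 0 members in 8-week db/db and 16-week db/db, beside 4.34% and 11.7% of all genes, and 1 in HFD, beside 8.28%. As in Mono/MAC, the minimum favours lower ratios where a gene passes through WT alone. Over all 44 members the median log2 ratio was -0.80, -2.06 and -0.25, and over all genes 0.04, -0.02 and 0.07.

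The GTPases were the stromal group with the largest difference in 8-week db/db. All 7 were at least 2-fold lower there, and 6 of 7 in 16-week db/db. Iigp1 was at 150 CPM in WT, 21.4 CPM in 8-week db/db, 26.4 CPM in 16-week db/db and 186 CPM in HFD. Ifi47 was at 29.99, 5.53, 8.41 and 14.3 CPM, and Gbp7 at 51.1, 15.2, 11.9 and 58.5 CPM in the same order. The group's summed level in HFD, 351 CPM, was close to the 348 CPM of WT, and the db/db libraries were at 81.2 CPM and 102 CPM. HFD endothelial cells held the group at 1691 CPM. Endothelial markers within the stromal gate were higher in HFD than in WT, as given below, and their part in the 351 CPM was not tested.

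Other stromal members followed other orders. Usp18 was at 32.1 CPM in WT, 8.48 CPM in 8-week db/db, 0.700 CPM in 16-week db/db, where 3 UMIs were counted, and 11.6 CPM in HFD. Samhd1 was at 242, 109, 42.3 and 86.5 CPM, and Ifi27l2a at 937, 349, 152 and 316 CPM. Usp18 passed the level minimum only with its WT level, which favours a lower ratio for it. Usp18, Samhd1 and Ifi27l2a were at least 2-fold lower in every library of obese mice. Irf7 shared that pattern, at 35.1, 15.4, 7.70 and 13.03 CPM. Stat2 was at 58.8, 29.6, 17.3 and 39.1 CPM, and Irf9 at 49.2, 29.5, 10.3 and 45.97 CPM, within 2-fold of WT in HFD for both.

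In the HFD stromal cells some members were higher than in WT. Rsad2 was at 10.7 CPM in WT, 8.41 CPM in 8-week db/db, 1.17 CPM in 16-week db/db and 23.3 CPM in HFD, the 1 member at least 2-fold higher, with a log2 ratio of 1.12 (0.87 to 1.37), and 0 members were that much higher with the stricter gate or with no mitochondrial limit. Isg15 was at 26.3, 23.9, 6.07 and 42.9 CPM and Ifih1 at 32.7, 25.9, 15.4 and 49.0 CPM. Ifit3 was at 18.7, 7.64, 3.04 and 26.5 CPM. The same 4 genes were at least 3-fold lower in HFD than in WT in Mono/MAC. Of the 32 members past the level minimum in both lineages, 9 had an interval below 0 in Mono/MAC and above 0 in stromal cells in HFD, beside 6.58% of the 6552 genes past it in both. In 8-week db/db and 16-week db/db 0 members had so, beside 6.11% and 6.64%. Markers of other cell types in the stromal gate also differed, with the summed endothelial markers at 3.90, 23.5, 65.4 and 226 CPM and the mural markers at 8.57, 22.5, 117 and 138 CPM in WT, 8-week db/db, 16-week db/db and HFD. Their part in the stromal levels was not tested.

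Among Mono/MAC, stromal, endothelial and T/NK cells, the lineage with the highest core level was not the same in every library. Mono/MAC held 6.25 times the stromal level in WT and 3.45 times in 8-week db/db, 1.35 times in 16-week db/db and 0.765 times in HFD. Endothelial cells held 11.1 times the stromal and 8.23 times the Mono/MAC level in 16-week db/db, and 3.02 times and 3.95 times in HFD. Their core level was 525 CPM (491 to 562) in 16-week db/db and 814 CPM (789 to 839) in HFD. With 12 WT cells and 26 core UMIs, no ratio of endothelial cells to WT is given. T and natural killer (T/NK) cells had core levels of 175, 146, 93.01 and 152 CPM over 33, 129, 68 and 29 cells in WT, 8-week db/db, 16-week db/db and HFD.

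By UMIs the endothelial members were led by Ly6e, at 1122 CPM in 16-week db/db and 1144 CPM in HFD, and by Iigp1, at 308 CPM and 1077 CPM. Rsad2 was at 218 CPM in 16-week db/db and 198 CPM in HFD and made up 41.6% and 24.3% of the endothelial core UMIs. In the same libraries Rsad2 was at 4.29 and 25.8 CPM in Mono/MAC. Isg15 was at 68.3 CPM in 16-week db/db and 140 CPM in HFD, and Igtp, a GTPase, at 154 and 62.2 CPM. In both libraries the endothelial level of Rsad2 was thus above that of Mono/MAC.

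Macrophage subsets were compared next, since their mix differs between libraries. Perivascular macrophages (PVM, gated on Lyve1, Folr2, Cd163 and F13a1) made up 1114 of the 1213 Mono/MAC in WT, 1674 of 3013 in 8-week db/db, 370 of 2413 in 16-week db/db and 141 of 1561 in HFD. Lipid-associated macrophages (LAM, gated on Trem2, Gpnmb, Spp1 and Cd9) made up 9, 602, 1534 and 885. Within PVM the core was at 2073 CPM in WT, 752 CPM in 8-week db/db, 72.2 CPM in 16-week db/db and 213 CPM in HFD. The log2 ratios within PVM were -1.46, -4.84 and -3.28, with the summed stress genes named further on at 18035, 12119, 6803 and 4772 CPM in PVM of WT, 8-week db/db, 16-week db/db and HFD. LAM were at 410, 59.9 and 201 CPM in 8-week db/db, 16-week db/db and HFD. The 9 LAM of WT, with 123 core UMIs, were at 891 CPM (740 to 1063), and no ratio to so few cells is given. In 8-week db/db the core was thus lower in LAM than in PVM, and the WT LAM are too few to compare. The counting intervals of LAM and PVM overlapped in 16-week db/db (56.0 to 64.1 and 58.6 to 88.0 CPM). They also overlapped in HFD (191 to 211 and 179 to 252 CPM).

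Of 38 members past the level minimum in PVM, 22 were at least 2-fold lower in 8-week db/db, 33 in 16-week db/db and 24 in HFD, beside 1.73%, 12.3% and 8.52% of 7620 genes. At least 2-fold higher were 0 members, beside 2.7%, 16% and 10.9% of these genes. As in Mono/MAC, a gene can pass the minimum through WT alone, which favours lower ratios. Over all 44 members the median log2 ratio in PVM was -1.22, -2.54 and -1.60, and over all genes tested 0.07, 0.16 and 0.18. Some counts were very small, as for Ifit3 with 1 UMI in 16-week db/db and 3 in HFD.

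Single cells were compared at 1 depth, each thinned at random to 1000 UMIs. Of the WT Mono/MAC 21.8% (262 of 1200, interval 19.5% to 24.3%) had at least 3 core UMIs. The share was 5.64% (158 of 2802) in 8-week db/db, 0.258% (6 of 2322) in 16-week db/db and 0.961% (15 of 1561) in HFD. Unthinned, the shares were 65.3%, 34.5%, 3.56% and 14.99%, and 13, 211, 91 and 0 Mono/MAC under 1000 UMIs were left out. At least 1 core UMI was seen in 58.3%, 33.6%, 5.77% and 15.6% of thinned cells. T/NK cells had 0 cells with 3 core UMIs in every library, which allows up to 9.09%, 2.4%, 5.66% and 10.3%, and the stromal shares lay between 0.192% and 1.996%. In endothelial cells the share was 3.79% (25 of 660) in 16-week db/db and 7.72% (81 of 1049) in HFD. Under 1000 UMIs and left out were 615 of 1275 endothelial cells in 16-week db/db and 2 of 1051 in HFD.

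**Figure D4:**
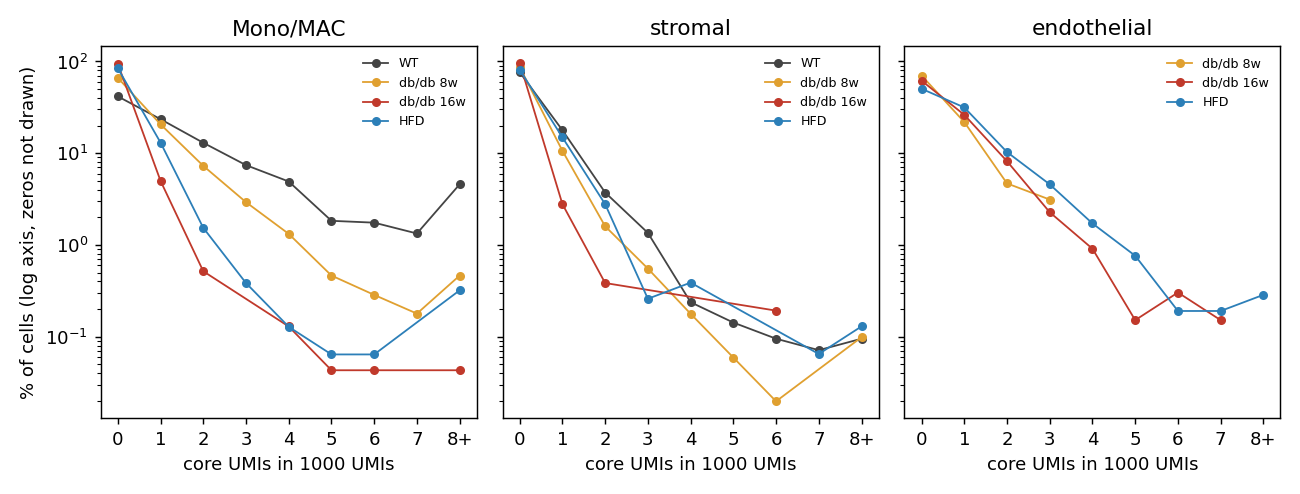
Percent of cells (log axis) by the number of core UMIs in 1000 UMIs per cell, for each library and lineage drawn, with counts of 8 or more together and zeros not drawn. The WT Mono/MAC line lies above the others from 1 UMI on, and 21.8% of WT against 0.258% of 16-week db/db Mono/MAC have at least 3 core UMIs.

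Core UMIs were unevenly spread over the cells. The 10% of Mono/MAC with the most held 47.1% of the core UMIs in WT, 56.3% in 8-week db/db and 76.0% in HFD, and all of them in 16-week db/db. Any core UMI was seen in 58.3%, 33.6%, 15.6% and 5.77% of cells in that order. The share held by the top 10% rises as fewer cells have any, so it does not compare the spread between libraries. Cells with an Rsad2 UMI also held more of the other core genes. In WT they had 2.15 other core UMIs per cell against 0.825 in cells without Rsad2, in 8-week db/db 1.62 against 0.444, and in HFD 2.48 against 0.166, the last over 27 cells with Rsad2. These are counts within 1 library at 1 depth, and cells of a library are not replicates.

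Of the ligands, interferon beta was followed here, and the UMIs of Ifng are given under the other observations. Of 9 ligand genes 0 reached a mean of 10 CPM in Mono/MAC. Ifnb1 was at 28.9 CPM in WT (234 UMIs), 9.29 CPM in 8-week db/db (174 UMIs), 0 in 16-week db/db and 0.0871 CPM in HFD (1 UMI). The log2 ratio was -1.64 (-1.93 to -1.35) in 8-week db/db and -8.37 (-13.68 to -5.88) in HFD, and the level was at least 171-fold lower in 16-week db/db against a floor of 3 UMIs. Ifnb1 UMIs were found in 7.58% of WT Mono/MAC (92 of 1213) and 3.75% of those of 8-week db/db (113 of 3013). In 16-week db/db 0 of 2413 cells had one, which by 3 counts of the total allows up to 0.124% of cells with a UMI and sets no limit on cells that express the gene, and in HFD 1 of 1561 (0.0641%). The stromal cells, with 0.278% in WT and 0.181% in 8-week db/db, show the share where free RNA could contribute, at median depths of 6936 and 3497.5 UMIs against 5478 and 4891 in Mono/MAC.

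Cells with Ifnb1 were high in the core. In WT they had a core level of 4928 CPM against 1661 CPM in Mono/MAC without it, and in 8-week db/db 1542 CPM against 556 CPM. Their median depth was also greater, 9094 against 5312 UMIs in WT and 7944 against 4826 in 8-week db/db, so that Ifnb1 had more chance of being seen in them. Il1b or Ccl4, genes of inflammatory activation, were seen in 100% of the cells with Ifnb1 in WT and in 48.7% of those without it, and in 97.3% against 72.0% in 8-week db/db.

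**Figure D5:**
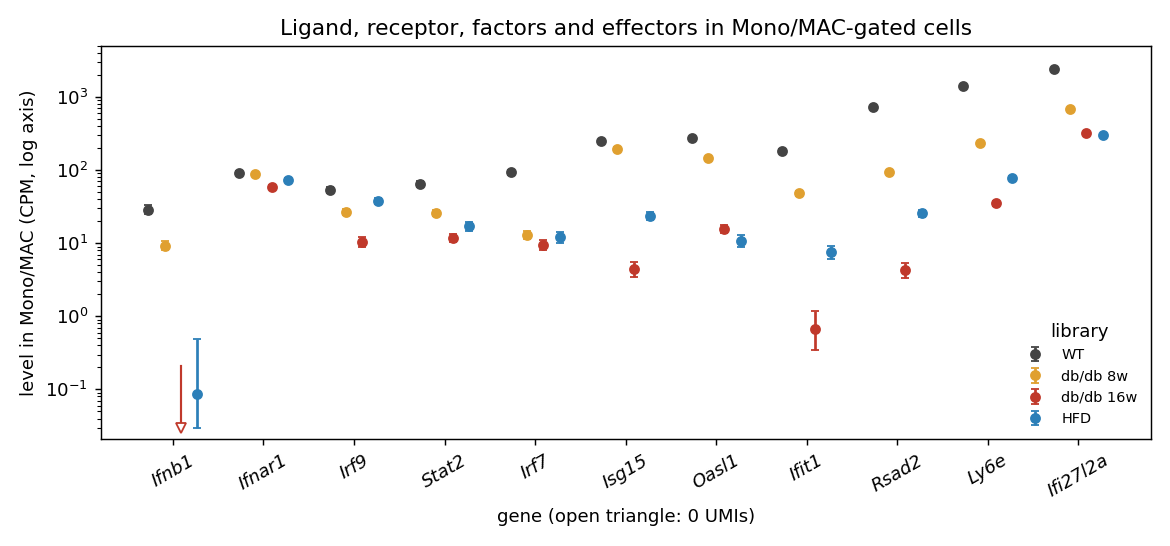
Levels in Mono/MAC in CPM on a log axis for the ligand gene, a receptor gene, transcription factors and effectors named in the text, one point for each library with exact 95% Poisson intervals of counting error, and an open triangle where 0 UMIs were counted. The points of Ifnar1 stay between 59.1 and 91.8 CPM over the libraries, while Ifit1 ranges from 183 CPM in WT to 0.677 CPM in 16-week db/db.

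Receptor genes differed little. Ifnar1 was at 91.8, 87.8, 59.1 and 73.4 CPM and Ifnar2 at 184, 139, 154 and 144 CPM in WT, 8-week db/db, 16-week db/db and HFD Mono/MAC, and 0 of the 4 receptor genes past the level minimum were 2-fold lower or higher in any library. Irf1, a factor that also answers interferon gamma, was at 355, 291, 34.6 and 71.9 CPM in the same order. Of 9 sensors and adaptors 1, 6 and 1 were at least 2-fold lower in 8-week db/db, 16-week db/db and HFD, and of 3 negative regulators 0, 2 and 1, beside 3.96%, 23.4% and 9.43% of all genes. In HFD 1 of 9 is near the share of all genes. Socs3, an inhibitor of cytokine receptors, was at 318, 376, 37.1 and 29.7 CPM.

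Response genes outside the members were less uniform. Of 37 listed, 23 passed the level minimum in Mono/MAC, and 13, 18 and 9 were at least 2-fold lower in 8-week db/db, 16-week db/db and HFD, beside 3.96%, 23.4% and 9.43% of all genes. In each library 1 was at least 2-fold higher, a smaller share than the 5.98%, 19.8% and 13.7% of all genes. It was Ifi27, at 34.7 CPM in WT, 117 CPM in 8-week db/db, 129 CPM in 16-week db/db and 219 CPM in HFD. Cxcl10, a chemokine for T cells, was at 591, 286, 2.93 and 14.6 CPM. Slfn2 was at 482 CPM in WT and 775 CPM in 8-week db/db, and at 141 and 387 CPM in 16-week db/db and HFD.

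Other genes were also higher in WT Mono/MAC. The summed level of 6 stress genes, Fos, Jun, Egr1, Hspa1a, Hspa1b and Dnajb1, which rise during tissue digestion, was 17687 CPM in WT, 7043 CPM in 8-week db/db, 2396 CPM in 16-week db/db and 2532 CPM in HFD. In Mono/MAC with under 0.5% of UMIs from these genes (216, 1679, 1960 and 1273 cells) the core was at 2885, 643, 63.1 and 194 CPM, ratios of -2.17, -5.51 and -3.89. These ratios lay further below WT than those over all Mono/MAC, and the part of the stress genes was not tested. Il1b was at 1705, 2516, 40.0 and 214 CPM, Tnf at 453, 796, 25.6 and 102 CPM and Ccl4 at 2778, 2038, 119 and 66.5 CPM, so that all 3 were low in 16-week db/db and HFD. In Mono/MAC without a UMI of Il1b, Tnf or Ccl4 (448, 580, 1799 and 569 cells) the core was at 841, 362, 63.2 and 166 CPM, ratios of -1.21, -3.73 and -2.34.

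Markers of other cell types within the Mono/MAC gate also differed. The summed stromal markers were at 538, 205, 12.2 and 173 CPM in WT, 8-week db/db, 16-week db/db and HFD, the neutrophil markers at 163, 54.2, 37.1 and 22.0 CPM and the T/NK markers at 8.28, 86.7, 64.9 and 317 CPM. The endothelial markers were at 3.83, 17.3, 30.8 and 150 CPM and the mural markers at 3.34, 2.83, 3.38 and 56.8 CPM. The part of these and of the sex-linked difference of 16-week db/db in the levels of the core and the other members was not tested. The median mitochondrial share of Mono/MAC was 6.56%, 4.92%, 0.678% and 10.3%, and the lowest share and the lowest core were both those of 16-week db/db, while the HFD share was above that of WT.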

How the data were processed

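The authors digested BAT, sorted SVF cells and made 10x Genomics 3′ libraries, and processed them with Cell Ranger on mm10. The labels name version 7.1.0 and the headers of the matrices 6.0.0. The deposited values are raw UMI counts per gene and barcode in 4 libraries, 1 per group, and no column was without a sample. The labels' extraction text describes bulk RNA and was not used.

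Barcodes with 250 to 6000 genes, 500 to 30000 UMIs and under 15% mitochondrial UMIs were kept, the limits of the study's methods. A cell entered 1 of 10 lineages with at least 3 UMIs of its markers that made up at least 75% of all marker UMIs, and a stricter gate used 10 UMIs and 90%. No doublet caller was run. Of simulated doublets of different lineages some still entered a gate, and doublets can carry UMIs between lineages. Counts were summed over the cells of a lineage and divided by all their UMIs, as CPM. Genes with a mean of at least 10 CPM were compared at a 2-fold limit. Sums were given exact Poisson, shares Clopper-Pearson and ratios exact conditional binomial 95% intervals. For counts of 0 a floor of 3 UMIs, or 3 cells for a share, was used. Cells were thinned to 1000 UMIs for shares.

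The members, gene lists and markers were chosen with earlier results of these data known. Full values are given for up to 3 members leading each role by UMIs, for the 5 whose smallest ratio, of 1 sign in all 3 libraries, was largest, and for Irf7, Stat2 and Irf9. Other genes named, Usp18 and Ifi35 in Mono/MAC, Rsad2 in stromal cells and the endothelial genes among them, were chosen after their values were seen. Mb21d1 is Cgas in RefSeq. The count over the signal transduction genes is not reported here. Promoters came from RefSeq and gene positions from GENCODE, both on GRCm38. Python 3.11.15, numpy 2.4.6, scipy 1.17.1 and pandas 2.3.3 were used, and the scripts were tested on simulated data.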

Additional observations from a re-analysis of the deposited data

Results flagged for a closer look

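For 9 members the HFD library lay above WT in stromal cells and below WT in Mono/MAC, with both counting intervals clear of 0. The log2 ratios in stromal cells and Mono/MAC were 1.12 and -4.83 for Rsad2, 0.70 and -3.39 for Isg15, 0.58 and -2.26 for Ifih1, and 0.50 and -1.91 for Ifit3. They were 0.41 and -0.74 for Lgals3bp, 0.38 and -1.20 for Ddx58, 0.35 and -4.17 for Ly6e, 0.31 and -1.25 for Iigp1, and 0.19 and -2.18 for Gbp7. With 1 library per group the difference between the lineages was not tested. The summed endothelial markers in the stromal gate were at 3.90 CPM in WT and 226 CPM in HFD, and their part in the stromal ratios was not tested. Ratios of the 9 members are not given at the mitochondrial limit of 5%, which lowered the HFD core ratio of stromal cells.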

How the results depend on the processing

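No core ratio or share changed direction under the settings run. Of the values, 102 stayed near the reported one and 54 did not, near being the counting interval of the reported value or, for counts of members, 1.5 times. The Mono/MAC core ratio left its interval in 11, 10 and 10 settings for 8-week db/db, 16-week db/db and HFD. It stayed within it in 1, 2 and 2. Counts of Mono/MAC members past 2-fold stayed within the wider limit of 1.5 times in every setting. Log2 ratios of the core in Mono/MAC are given for 8-week db/db, 16-week db/db and HFD against -1.75, -5.00 and -3.31. With a mitochondrial limit of 5% they were -1.92, -5.10 and -3.61, with a denominator free of mitochondrial, ribosomal and Malat1 UMIs -1.70, -4.90 and -3.24, scaled to the median of all genes -1.81, -4.90 and -3.49, as the mean of per-cell levels -1.52, -4.56 and -3.02, in cells of 2000 to 8000 UMIs -1.26, -4.28 and -2.93, over all members -1.60, -3.32 and -2.14, and without Rsad2 -1.35, -4.46 and -2.86. Without a mitochondrial limit the 8-week db/db ratio was -1.68, and with the stricter gate the HFD ratio was -3.62. The next settings were chosen after seeing the data: PVM alone gave -1.46 and -4.84 in 8-week db/db and 16-week db/db, cells low in stress genes -2.17, -5.51 and -3.89, and cells without Il1b, Tnf and Ccl4 -1.21, -3.73 and -2.34. In stromal cells the 8-week db/db ratio was -0.98 with the stricter gate and -0.96 in cells of 2000 to 8000 UMIs, the 16-week db/db ratio -1.47 over all members, and the HFD ratio -0.78 with a mitochondrial limit of 5%, -0.34 scaled to the median and -0.42 over all members. The share of Mono/MAC with at least 3 core UMIs, lower than WT by 16.2, 21.6 and 20.9 percentage points, differed by -23.8, -38.6 and -37.1 when thinned to 2000 UMIs, by -21.9, -34.1 and -32.3 for at least 2 UMIs and by -8.11, -9.37 and -9.05 for at least 5. At 1.5-fold, 26 stromal members in place of 15 were lower in 8-week db/db and 12 in place of 6 in HFD, and 2 in place of 1 were higher in HFD. With no level filter 1 was higher in 8-week db/db and 3 in HFD, and with 5 CPM added, the stricter gate or no mitochondrial limit 0 were higher in HFD. Beyond what a setting's own construction changes, the cause was not tested. Each group has 1 library, so no library could be left out. No paired analysis was possible because each group has 1 library. Depth limits the genes with few UMIs, such as Ifit1 with 12 UMIs in 16-week db/db Mono/MAC.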

Other observations

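In stromal cells Cxcl9, a chemokine best known as a target of interferon gamma, was at 17.1 CPM in WT, 5.46 CPM in 8-week db/db, 106 CPM in 16-week db/db and 97.5 CPM in HFD. Slfn5 was at 275, 356, 278 and 658 CPM in that order. Of the 22 response genes outside the members past the level minimum there, 7, 11 and 1 were at least 2-fold lower in 8-week db/db, 16-week db/db and HFD, beside 2.12%, 13.7% and 6.52% of all genes. At least 2-fold higher were 1, 1 and 4, beside 4.34%, 11.7% and 8.28%, so that the db/db counts are near or below the share of all genes. Ifng itself had 4, 2, 0 and 10 UMIs in Mono/MAC.

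Among the cells in no gate, 855 in 16-week db/db and 355 in WT among them, the core was at 961 CPM in WT, 430 CPM in 8-week db/db, 132 CPM in 16-week db/db and 402 CPM in HFD. The 101 neutrophil-gated cells of 8-week db/db had a core level of 1099 CPM (948 to 1268), above the 608 CPM of its Mono/MAC.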
